A study of Mus musculus with 12 samples.

Results

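Immune checkpoint and suppressor effector genes were examined in a YTHDF2 RNA immunoprecipitation experiment (RIP-seq) on myeloid cells from irradiated and unirradiated tumors. The set held 10 of the 54446 genes counted, chosen by symbol and matched to their Ensembl identifiers: *Cd274*, *Pdcd1lg2*, *Vsir*, *Cd86*, *Havcr2*, *Arg1*, *Nos2*, *Ptgs2*, *Entpd1* and *Tgfb1*. All 10 were found, each at 1 identifier, and no other counted gene overlapped their exons. The cells were CD11b+ myeloid cells sorted from MC38 tumors, which grow from a mouse colon carcinoma line. Hosts were WT mice, that is *Ythdf2* f/f mice without Cre on a C57BL/6J background, aged 8 to 10 weeks and of both sexes per the study's methods. The Ctrl groups came from unirradiated tumors and the IR groups from tumors collected 3 days after a local dose of 20 Gy. There were 3 pools per condition, and each pool combined the cells of 5 mice. A part of every lysate was sequenced as Input, and the rest was precipitated with an antibody to YTHDF2 (IP), which gave 4 groups of 3 libraries (Ctrl Input, Ctrl IP, IR Input, IR IP). The methods call the pools technical replicates, so the p-values measure the spread between these pools, which may be technical. The labels and the methods name different suppliers of the antibody and differ on whether mRNA was isolated before the IP. No IP with a control antibody or from cells without YTHDF2 was analysed here, so IP against Input compares recovered RNA with lysate RNA.

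YTHDF2 is a cytoplasmic reader protein that binds N6-methyladenosine (m6A) in mRNA and recruits the machinery that shortens poly(A) tails and degrades the transcript. Myeloid-derived suppressor cells restrain T cells by several routes: ligands such as PD-L1 and VISTA that engage inhibitory receptors, enzymes that use up arginine, and soluble mediators such as prostaglandin E2, adenosine and TGF-beta. The 10 genes cover these routes, and their Input levels reflect transcript abundance while log2(IP/Input) is taken as binding intensity.

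The libraries held 27852948 to 42382532 reads on genes. The share of aligned reads that fell on no gene was 24.6% to 27.0% in the Inputs, 41.8% to 42.7% in the Ctrl IPs and 49.4% to 54.1% in the IR IPs, so it moved with both IP and IR, and its part in the results on IPs was not tested. *Itgam*, which encodes CD11b, averaged 944 ± 1.39 CPM (counts scaled to a common library size; SD, n = 3) in Ctrl Inputs, against 1719 ± 23.5 CPM after IR. All 13 myeloid markers had at least 3 counts in every library, and their summed level was 9652 to 10532 CPM in the Ctrl Inputs and 13060 to 13846 CPM in the IR Inputs. The largest parts were *S100a9* (3519 ± 187 and 4907 ± 202 CPM), *Lyz2* (2469 ± 48.8 and 2587 ± 22.8) and *S100a8* (2103 ± 217 and 2905 ± 196). *Csf1r* (214 ± 3.73 and 208 ± 6.31 CPM) and *Adgre1* (31.3 ± 1.91 and 28.0 ± 1.75) did not rise. Of the defining markers of T cells, *Cd3e* had 0 to 3 counts in the Inputs, and the 12 T and NK cell markers together reached 1.58 to 2.46 CPM there. Summed epithelial markers were 119 to 127 CPM in the Ctrl Inputs and 90.9 to 97.0 CPM in the IR Inputs, almost all of it *Cdh1* (119 ± 3.81 and 88.4 ± 2.15 CPM). *Epcam* was at 4.63 ± 0.472 and 5.93 ± 1.04 CPM, and *Krt8*, *Krt19* and *Cldn7* had 0 to 5 counts in the Inputs. In these bulk samples, fewer cells of a type and less RNA per cell cannot be told apart.

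m6A is laid down mostly at DRACH sites, of which GGACT is a common form, so the sites nearest the stop codon are shown for the 6 genes that were above or below Input in the Ctrl IPs. The letters were read from the longest protein-coding transcript of each gene in the GENCODE M21 set (mm10), 5′ to 3′ on the gene's strand, with GGACT in capitals:
Vsir, chr10:60369391-60369415, plus strand, 3′ UTR: ctcctctgttGGACTgactctatcc
Cd86, chr16:36620812-36620836, minus strand, coding sequence: aggaacaactGGACTctacgacttc
Entpd1, chr19:40738835-40738859, plus strand, coding sequence: aacgcggggtGGACTttgggctaca
Havcr2, chr11:46479445-46479469, plus strand, 3′ UTR: gaccgcctctGGACTgccactttta
Tgfb1, chr7:25688161-25688185, plus strand, coding sequence: agcccgaagcGGACTactatgctaa
Cd274, chr19:29382496-29382520, plus strand, coding sequence: ccacagaacaGGACTcactgggtgc
These letters mark possible sites, and methylation was not measured in these files. Relative to the stop codon, they lay at 464 nt (*Vsir*), -650 nt (*Cd86*), -182 nt (*Entpd1*), 11 nt (*Havcr2*), -868 nt (*Tgfb1*) and -161 nt (*Cd274*). Negative values lie upstream, so the nearest site was not always close. GGACT was present in 92.3% of the 14496 protein-coding genes with enough counts, at a median of 1.06 per kb of transcript. *Vsir* had 4 copies, all in its 3′ UTR, and a density of 0.825 per kb, while *Tgfb1* had 5 copies, none of them in the 3′ UTR, and a density of 2.30 per kb. *Cd86* (1.97 per kb), *Entpd1* (1.90 per kb) and *Havcr2* (1.84 per kb) were also above the median of all genes. *Cd274* had 3 copies, all in the coding sequence (0.828 per kb), but 11 copies of ATTTA, the core letters of AU-rich elements, all in its 3′ UTR. Its ATTTA density of 3.04 per kb was exceeded among the 10 genes only by *Ptgs2*, with 15 copies and 3.37 per kb, against a median of 0.761 per kb over all genes. The 2 motifs cannot overlap and were searched on the RNA strand only. Of the 4 genes above Input in Ctrl, *Cd86*, *Entpd1* and *Havcr2* had more GGACT per kb than the median gene and *Vsir* had fewer, and of the 2 below Input, *Tgfb1* had more and *Cd274* fewer.

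Levels were compared between genes per kb of annotated exon, on the CPM scale. The length used was the union of all annotated exons. It was 5042 bp for *Tgfb1*, 3661 bp for *Cd86* and 5014 bp for *Vsir*. Their longest protein-coding transcripts had 2175, 2539 and 4846 nt, so the order between genes depends on the length used. In the Ctrl Inputs *Tgfb1*, the suppressive cytokine TGF-beta 1, was the most abundant at 57.8 ± 1.58 CPM per kb (SD, n = 3), above *Vsir*, which encodes the inhibitory ligand VISTA, at 47.6 ± 1.06. *Cd86*, a ligand of the activating receptor CD28 and of the inhibitory receptor CTLA-4, and *Cd274*, which encodes PD-L1, followed at 33.7 ± 0.691 and 33.2 ± 0.196 CPM per kb, with overlapping ranges. *Pdcd1lg2*, which encodes PD-L2 and lies next to *Cd274* on chromosome 19, was at 9.98 ± 0.566 CPM per kb. *Entpd1*, the ectonucleotidase CD39 that starts the breakdown of extracellular ATP towards adenosine, was at 6.66 ± 0.131 CPM per kb, and its range overlapped that of *Havcr2*, which encodes the receptor TIM-3, at 5.84 ± 0.662. The remaining 3 genes were far lower: *Ptgs2*, the inducible cyclooxygenase COX-2, at 0.199 ± 0.0673 CPM per kb, and the arginine-using enzymes *Arg1* at 0.120 ± 0.0780 and *Nos2* at 0.0257 ± 0.0230, each overlapping its neighbour in this order. The same 7 genes had over 500 counts in every library, and the other 3 never exceeded 56.

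On the same exon lengths, *Tgfb1* (49.3 ± 0.722 CPM per kb), *Vsir* (48.9 ± 1.95) and *Cd86* (48.6 ± 1.85) overlapped in the IR Inputs, and *Cd274* reached 42.3 ± 0.637. In the IPs *Vsir* was the highest by this measure, at 108 ± 1.62 CPM per kb in Ctrl and 97.5 ± 2.25 in IR. *Cd86* followed at 49.1 ± 1.09 and 49.9 ± 4.80.

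**Figure D1:**
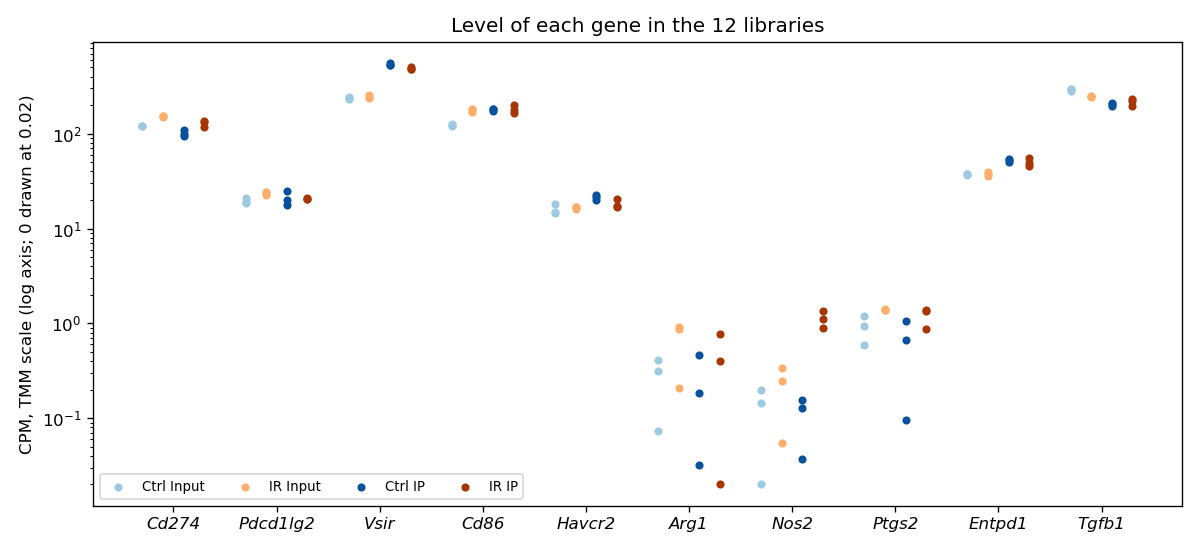
Level of each of the 10 genes in the 12 libraries, in CPM on a log axis, with 1 point per library and colors for the 4 groups; a count of 0 is drawn at 0.02. *Vsir* is at 232 to 256 CPM in the Inputs and 479 to 551 CPM in the IPs, and *Arg1*, *Nos2* and *Ptgs2* lie under 1.42 CPM in every library.

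In Ctrl, the question was which of these transcripts YTHDF2 held in unirradiated tumors. Of the 10 genes, 9 had enough counts to be tested (at least 10 in at least 3 libraries), 4 were higher in IP than in Input and 2 were lower at an adjusted p-value under 0.05 in edgeR's quasi-likelihood test. Over all 17416 genes tested, 34.1% passed upwards and 34.6% downwards (68.7% in all), so counts of this size are near the background.

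*Vsir* was at 232, 241 and 242 CPM in the 3 Ctrl Inputs and at 537, 551 and 537 CPM in the 3 Ctrl IPs. Every IP was above every Input, a log2 fold change of 1.26 (standard error 0.0377, adjusted p = 5.32e-15, edgeR), or 2.39-fold, which placed *Vsir* above 81.5% of the genes tested. *Cd86* was at 121, 126 and 123 CPM in the Ctrl Inputs and at 183, 180 and 175 CPM in the Ctrl IPs, with no overlap (log2 fold change 0.62, standard error 0.0453, adjusted p = 1.42e-09, edgeR). *Entpd1* was at 36.4 to 37.8 CPM in the Inputs and 49.8 to 54.0 CPM in the IPs, 1.48-fold higher (adjusted p = 1.31e-06, edgeR). *Havcr2* was at 14.7 to 18.0 CPM and 19.9 to 22.6 CPM, 1.42-fold higher (adjusted p = 7.17e-04, edgeR).

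*Tgfb1* went the other way. Its Ctrl Inputs were at 282, 296 and 296 CPM and its Ctrl IPs at 207, 197 and 212 CPM, a log2 fold change of -0.43 (standard error 0.0419, adjusted p = 6.12e-08, edgeR). *Cd274* was at 120, 121 and 119 CPM in the Ctrl Inputs and at 99.2, 110 and 95.7 CPM in the Ctrl IPs. All IPs of *Cd274* were below all Inputs, but the difference was small (log2 fold change -0.17, standard error 0.0566, adjusted p = 0.0153, edgeR) and was lost with protein-coding genes only (-0.068, adjusted p = 0.286, edgeR) and without replicate 1 or 3 (-0.12 and -0.11). *Pdcd1lg2* had overlapping values, 18.7 to 20.8 CPM in the Inputs and 17.7 to 24.9 CPM in the IPs (adjusted p = 0.240, edgeR).

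In IR, all 10 genes had enough counts, 3 were higher in IP than in Input (*Vsir*, *Entpd1* and *Nos2*) and 1 was lower (*Cd274*), against 32.1% higher and 30.4% lower (62.6% in all) of the 18650 genes tested. *Nos2* passed the filter on low counts only through the IR IPs, in which it was high, so its call is no support. *Vsir* was again far above Input: its IR Inputs were at 237, 256 and 242 CPM and its IR IPs at 486, 501 and 479 CPM, a log2 fold change of 1.05 (standard error 0.0450, adjusted p = 6.06e-09, edgeR), or 2.07-fold. *Entpd1* was at 35.6 to 39.5 CPM in the Inputs and 45.6 to 55.7 CPM in the IPs, 1.39-fold higher (adjusted p = 0.00146, edgeR). *Vsir* and *Entpd1* were called higher in both conditions under every alternative run.

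*Cd86* had a log2 fold change of only 0.09 in IR (standard error 0.0705, adjusted p = 0.285, edgeR), with Inputs at 170, 180 and 183 CPM and IPs at 179, 167 and 202 CPM that overlapped. It was called higher with 4 of 11 alternatives, among them library size only (0.24) and without replicate 2 (0.23). *Havcr2* was at 15.9 to 16.9 CPM in the IR Inputs and 16.8 to 20.7 CPM in the IR IPs (log2 fold change 0.20, adjusted p = 0.231, edgeR).

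*Tgfb1* was at 248, 245 and 252 CPM in the IR Inputs and at 195, 219 and 232 CPM in the IR IPs. The ranges did not overlap, and the log2 fold change of -0.15 missed the threshold (standard error 0.0625, adjusted p = 0.0506, edgeR). It passed with the replicate block that pairs IP and Input of the same number (-0.16, adjusted p = 0.0361), with no filter (-0.29) and with all 12 libraries in one fit (-0.21). It did not pass with the other 8 alternatives, among them RLE (-0.11, adjusted p = 0.162) and library size only (-0.0054, adjusted p = 0.941, all edgeR). *Cd274* was at 151, 153 and 156 CPM in the IR Inputs and at 136, 135 and 118 CPM in the IR IPs, all below the Inputs. Its log2 fold change of -0.19 (standard error 0.0644, adjusted p = 0.0244, edgeR) was lost with 8 of 11 alternatives, which included leaving out any replicate and moved it to between -0.035 and -0.17. *Pdcd1lg2* was at 22.8 to 24.2 CPM in the IR Inputs and 20.4 to 20.7 CPM in the IR IPs (log2 fold change -0.16, adjusted p = 0.237, edgeR).

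**Figure D2:**
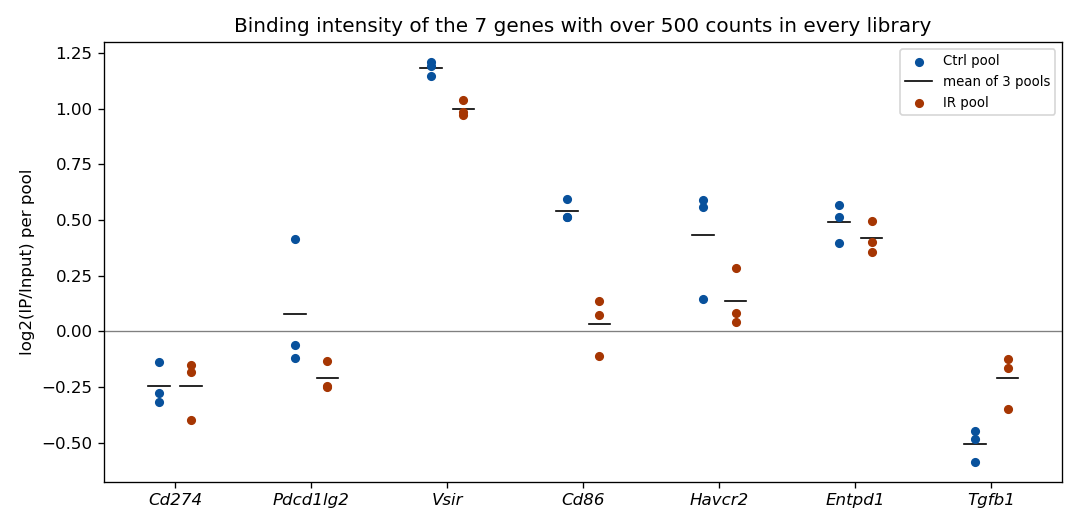
Binding intensity, log2(IP/Input), of the 7 genes with over 500 counts in every library, with 1 point per pool and a line at the mean of the 3 pools of Ctrl or IR; 0 marks equal CPM in IP and Input. *Vsir* lies at 1.15 to 1.21 in Ctrl and 0.97 to 1.04 in IR, *Cd86* falls from 0.51 to 0.59 in Ctrl to between -0.11 and 0.14 in IR, and *Tgfb1* lies at -0.58 to -0.45 in Ctrl and -0.35 to -0.12 in IR.

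Whether binding intensity changed with IR was tested as the interaction over all 12 libraries. All 10 genes were tested, 1 was higher in IR (*Tgfb1*) and 2 were lower (*Cd86* and *Vsir*), against 6.28% higher and 13.9% lower (20.2% in all) of the 20720 genes tested. Scaling by library size only shifted the median over all genes upwards by 0.31 (log2), and the share of changed genes that were higher went from 31.1% to 76.5%.

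For *Cd86*, log2(IP/Input) per pool was 0.59, 0.51 and 0.51 in Ctrl and 0.08, -0.11 and 0.14 in IR. The pools did not overlap, and the change was -0.50 (standard error 0.0840, adjusted p = 1.80e-04, edgeR). With library size only it was -0.19 and no longer past the threshold (adjusted p = 0.119, edgeR), while its distance from the median of all genes was -0.42 under both scalings. For *Tgfb1*, the values were -0.45, -0.58 and -0.48 in Ctrl and -0.35, -0.16 and -0.12 in IR, a change of 0.30 (standard error 0.0771, adjusted p = 0.00845, edgeR). It was 0.61 with library size only, and without replicate 2 it was 0.27 and not past the threshold (adjusted p = 0.127, edgeR).

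For *Vsir*, log2(IP/Input) was 1.21, 1.19 and 1.15 in Ctrl and 1.04, 0.97 and 0.98 in IR, without overlap. The change of -0.19 (standard error 0.0567, adjusted p = 0.0244, edgeR) was small beside the enrichment itself, and it was lost with 7 of 10 alternatives, which included leaving out any replicate, and turned to 0.13 with library size only. *Cd274* showed no change at this precision (-0.00066, standard error 0.0885, unadjusted p = 0.994, edgeR), but with library size only its change was 0.31 and past the threshold (adjusted p = 0.0244, edgeR). *Havcr2* had 0.56, 0.59 and 0.15 in Ctrl and 0.04, 0.28 and 0.08 in IR, and its change of -0.29 missed the threshold (standard error 0.178, adjusted p = 0.306, edgeR). *Pdcd1lg2* (-0.30) and *Entpd1* (-0.071) were not called either, and *Entpd1* had 0.40 to 0.57 in Ctrl and 0.36 to 0.50 in IR.

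Transcript abundance was compared between the IR and Ctrl Inputs. Fold changes come from a fit scaled over the Inputs alone. They can differ from ratios of the CPM, which share 1 scale over all 12 libraries. Of the 9 genes tested, 3 rose (*Cd86*, *Cd274* and *Pdcd1lg2*) and 1 fell (*Tgfb1*), against 21.0% higher and 23.9% lower (45.0% in all) of the 16914 genes tested. *Cd86* went from 121, 126 and 123 CPM to 170, 180 and 183 CPM, a log2 fold change of 0.45 (standard error 0.0371, adjusted p = 1.35e-10, edgeR), above 87.1% of the genes tested. *Cd274* went from 120, 121 and 119 CPM to 151, 153 and 156 CPM, and its fitted change was 1.21-fold (log2 fold change 0.27, standard error 0.0356, adjusted p = 4.57e-07, edgeR). *Pdcd1lg2* went from 19.2, 20.8 and 18.7 CPM to 22.8, 24.2 and 24.2 CPM, with a fitted change of 1.15-fold (adjusted p = 0.0319, edgeR), and this call was lost with 6 of 11 alternatives, which included leaving out any replicate.

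*Tgfb1* fell from 282, 296 and 296 CPM to 248, 245 and 252 CPM, a log2 fold change of -0.31 (standard error 0.0321, adjusted p = 9.80e-09, edgeR). *Vsir* (-0.040), *Havcr2* (-0.022) and *Entpd1* (-0.068) had log2 fold changes within 0.07 of 0 and adjusted p-values of 0.367 to 0.868 (edgeR). *Vsir* averaged 239 CPM in the Ctrl Inputs and 245 CPM in the IR Inputs, so the sign of its change depended on the scale. The summed myeloid markers were higher and *Cdh1*, which made up almost all of the epithelial sum, lower in the IR Inputs, and their part in these differences was not tested.

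In the IPs, 2 of the 10 genes tested were higher in IR, *Cd274* and *Nos2*, and 0 were lower at an adjusted p-value under 0.05, against 6.12% higher and 9.85% lower (16.0% in all) of the 19255 genes tested. Here too *Nos2* passed the filter only through the IR IPs, in which it was high. *Vsir* was at an unadjusted p of 0.00812 (edgeR), and DESeq2 called it lower (-0.13, adjusted p = 0.0253). So did edgeR with the replicate number as a block (-0.14, adjusted p = 0.0153) and with all 12 libraries in one fit (-0.15, adjusted p = 0.0106). On simulated counts for this comparison 14.9% of DESeq2's calls were false, against 2.78% of edgeR's. Those counts used edgeR's own dispersion estimates, a setting that may favor edgeR. *Cd274* went from 99.2, 110 and 95.7 CPM to 136, 135 and 118 CPM, a log2 fold change of 0.36 (standard error 0.0817, adjusted p = 0.00616, edgeR). *Cd274* thus rose in both fractions, by a fitted 1.21-fold in the Input and 1.28-fold in the IP. Each fit was scaled within its own fraction, so the 2 folds are not on 1 scale. *Cd86*, which rose in the Input, was at 183, 180 and 175 CPM in the Ctrl IPs and 179, 167 and 202 CPM in the IR IPs (log2 fold change 0.032, adjusted p = 0.820, edgeR). *Tgfb1*, which fell in the Input, was at 197 to 212 CPM in the Ctrl IPs and 195 to 232 CPM in the IR IPs (log2 fold change 0.077, adjusted p = 0.514, edgeR). *Vsir* was lower in every IR IP than in any Ctrl IP, but by -0.14 on the log2 scale and just outside the threshold (adjusted p = 0.0506, edgeR), and with library size only it was at 0.068.

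**Figure D3:**
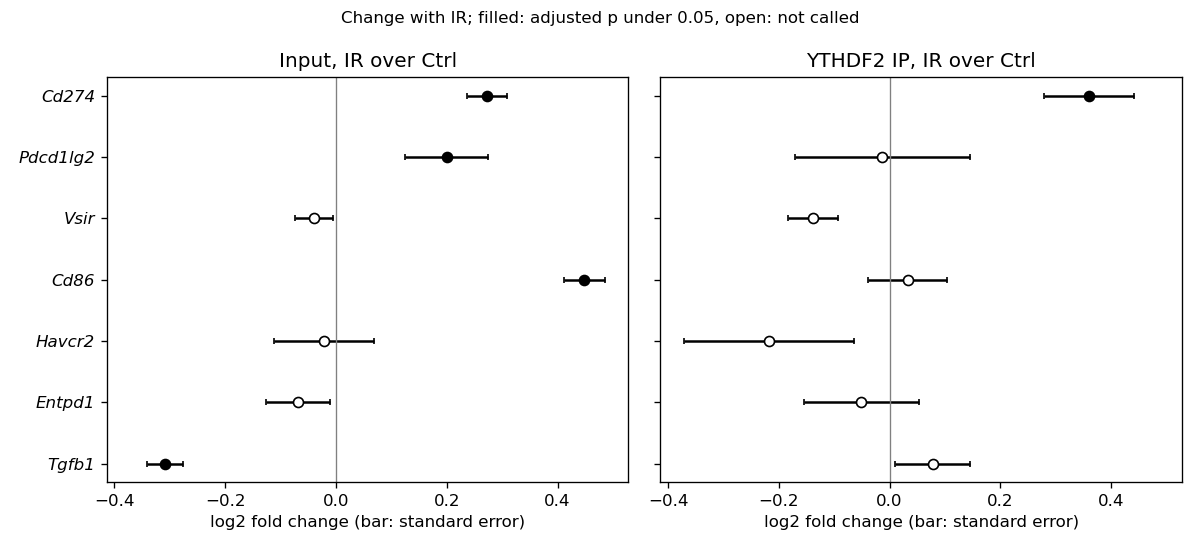
Log2 fold change of IR over Ctrl with its standard error for the 7 genes with over 500 counts in every library, in the Input (left) and the YTHDF2 IP (right); filled points passed an adjusted p-value of 0.05. *Cd274* lies at 0.27 in the Input and 0.36 in the IP, *Cd86* at 0.45 and 0.032, and *Tgfb1* at -0.31 and 0.077.

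*Arg1* and *Nos2* were at or near the level of counting noise, where 3 counts were worth 0.0738 to 0.112 CPM. *Ptgs2* was low but detected, at 3 to 56 counts per library. *Arg1*, the arginase often used to mark suppressive myeloid cells, had 11, 16 and 3 counts in Ctrl Inputs and 8, 33 and 35 after IR. The groups overlapped, and the log2 fold change of 1.23 had a standard error of 0.601 (adjusted p = 0.0991, edgeR). It passed the threshold only without replicate 1, at 1.80 (adjusted p = 0.0173, edgeR). In the IPs *Arg1* had 1, 15 and 5 counts in Ctrl and 25, 0 and 12 in IR, so its binding intensity could not be measured at this depth.

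*Nos2*, the inducible nitric oxide synthase, had 5, 0 and 8 counts in Ctrl Inputs, 13, 2 and 10 in IR Inputs and 4, 5 and 1 in the Ctrl IPs, but 36, 45 and 27 in the IR IPs. These 3 libraries stood above the other 9, at 1.12 ± 0.228 CPM against 0.107 ± 0.0621 CPM in the Ctrl IPs (SD, n = 3). The log2 fold change in the IP, IR over Ctrl, was 3.34 (standard error 1.06, adjusted p = 0.0434, edgeR), and that of IP over Input in IR was 2.43 (standard error 0.771, adjusted p = 0.0175, edgeR). With no filter on low counts both calls were lost (adjusted p = 0.124 and 0.0819, edgeR). The IP call was also lost with the replicate number as a block (adjusted p = 0.0769), and the call of IP over Input without replicate 2 (adjusted p = 0.0798) and with all 12 libraries in one fit (adjusted p = 0.0508, all edgeR). *Nos2* passed the filter on low counts only through the libraries in which it was high, did not pass it in the IP with any replicate left out, and the change of binding intensity itself was not past the threshold (2.44, standard error 1.50, adjusted p = 0.300, edgeR). The IR IPs were also the libraries with the largest share of reads on no gene, and the part of this in the *Nos2* counts was not tested. *Ptgs2* had 33, 23 and 49 counts in Ctrl Inputs and 55, 50 and 56 in IR Inputs, which did not overlap. It had 3, 34 and 18 in the Ctrl IPs and 45, 29 and 40 in the IR IPs. *Ptgs2* was called in none of the 5 comparisons (adjusted p = 0.208 to 0.833, edgeR), with unadjusted p-values of 0.123 or above. DESeq2 did not call it either.

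A further 68 genes of the same routes were examined in 5 lists. In Ctrl, IP exceeded Input at 23 of 56 tested genes and fell below it at 20, and in IR the counts were 18 and 20 of 60. Over all genes these shares were 34.1% and 34.6% in Ctrl and 32.1% and 30.4% in IR. With IR, log2(IP/Input) was higher at 8 and lower at 13 of 61 tested genes, the Input rose at 16 and fell at 14 of 56, and the IP was higher at 7 and lower at 6 of 59. The shares over all genes were 6.28% and 13.9% for binding intensity, 21.0% and 23.9% for the Input and 6.12% and 9.85% for the IP, and the list counts are to be read against them.

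Among 23 other checkpoint ligands and receptors, 19 were tested. In Ctrl, 11 were higher in IP, led by *Sirpa*, the receptor for the "don't eat me" signal CD47, at 805 ± 10.9 CPM in the Input and 2140 ± 34.2 CPM in the IP (log2 fold change 1.49, adjusted p = 4.70e-17, edgeR). Reads of *Sirpa* could be shared with its close relatives of the SIRP family. The 6 lower genes included *Lgals9*, which encodes the TIM-3 ligand galectin-9 (-1.97), and *Cd200*, an inhibitory ligand for myeloid cells (-1.84). Over all genes 34.1% were higher and 34.6% lower. In IR, 5 were higher and 7 lower, near the 32.1% and 30.4% of all genes, and *Lgals9* (-2.16), *Lgals3*, which encodes galectin-3 (-1.62), and *Cd200* (-1.11) led. In the Input, 9 rose and 2 fell with IR (21.0% and 23.9% of all genes). *Cd80*, the partner of *Cd86* in binding CD28 and CTLA-4, went from 93.5 ± 1.88 to 144 ± 7.50 CPM (log2 fold change 0.54, adjusted p = 2.02e-11, edgeR). *Pdcd1*, which encodes PD-1, rose by 0.51 and *Tnfrsf14*, the receptor HVEM, fell by 0.66 on the log2 scale. In the IP, 2 were higher and 3 lower in IR (6.12% and 9.85% of all genes), among them *Cd200* (1.01), *Nectin2*, a ligand of TIGIT (-0.46), and *Sirpa* (-0.30).

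The change of binding intensity with IR was lower at 8 and higher at 0 of these 19 genes at an adjusted p-value under 0.05, with a median of -0.32 against -0.083 over all genes. *Nectin2* (-0.76, adjusted p = 0.00302), *Sirpa* (-0.47, adjusted p = 3.74e-08) and *Cd80* (-0.43, adjusted p = 6.61e-04, all edgeR) led. This count reversed with library size only, to 1 lower and 4 higher with a median of -0.011, when the median of all genes was 0.23. *Tnfrsf14* and *Cd200* had unadjusted p-values under 0.05 in the other direction (0.0369 and 0.0160, edgeR), and DESeq2 called 1 gene higher and 8 lower. The lower direction of *Cd86* and *Vsir* was thus also that of 8 of the other checkpoint genes under TMM. It was not particular to checkpoint genes. Of the 13 myeloid markers, 8 were lower and 0 higher, with a median of -0.32, against 13.9% lower over all genes.

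Among 15 genes of TGF-beta activation and signaling, the direction was opposite. IR pools had a higher binding intensity at 5 of 15 tested genes and a lower one at 1 (6.28% and 13.9% of all genes), with a median of 0.32 against -0.083 over all genes, and at 5 higher and 0 lower with library size only. *Thbs1*, which encodes thrombospondin-1, an activator of latent TGF-beta, had a change of 0.87 (adjusted p = 6.90e-09), *Itgav*, the integrin subunit that binds the latent complex, one of 1.21 (adjusted p = 0.00299) and the receptor *Tgfbr2* one of 0.67 (adjusted p = 0.00600, all edgeR). The Input of 6 of 13 tested genes fell and that of 2 rose (23.9% and 21.0% of all genes): *Thbs1* went from 400 ± 1.66 to 253 ± 4.91 CPM, *Tgfbr3* fell by 0.56 and *Ltbp2* rose by 0.70 on the log2 scale. With all 12 libraries in one fit, 2 of 15 fell and 0 rose. In Ctrl, 3 of 13 were higher in IP, with *Tgfb2* at 2.33, and 5 lower, with *Itgav* (-1.84) and *Thbs1* (-1.50), against 34.1% and 34.6% of all genes. In IR, 4 of 14 were higher, among them *Tgfb2* (2.03) and *Lrrc32*, which encodes GARP (1.20), and 4 lower, among them *Tgfbr2* (-0.81), near the 32.1% and 30.4% of all genes. In the IP, *Tgfbr1* (0.61) and *Thbs1* (0.22) were higher and *Nrros*, which anchors latent TGF-beta 1 on myeloid cells, was lower (-0.34) in IR. These were the 3 called of 14, against 16.0% of all genes.

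**Figure D4:**
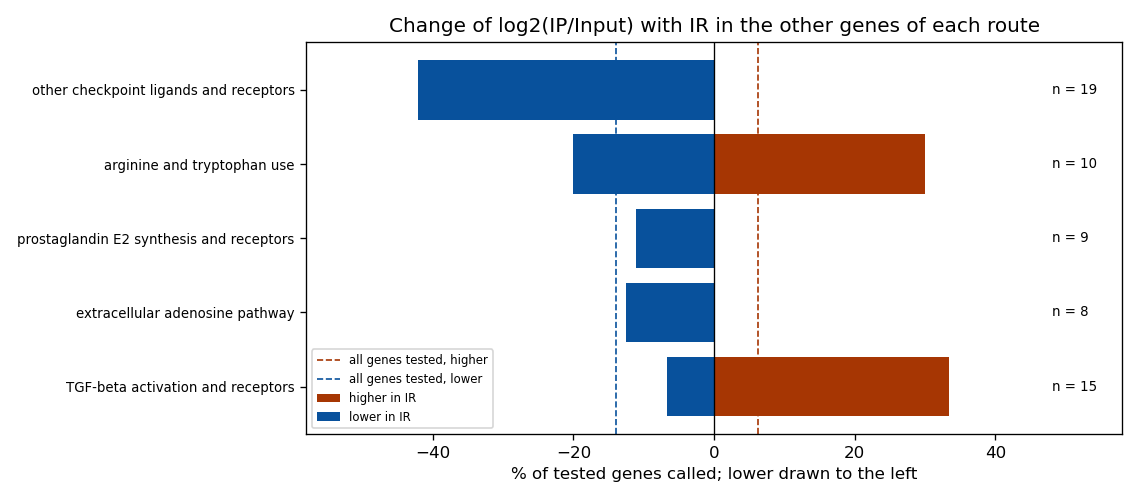
Share of the tested genes of each of 5 lists whose log2(IP/Input) was called higher (to the right) or lower (to the left) in IR, with dashed lines at 6.28% and 13.9% for all genes tested, and n the number of tested genes. The checkpoint list has 8 of 19 genes lower and the TGF-beta list 5 of 15 higher; with library size only the checkpoint counts became 1 lower and 4 higher.

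Although *Arg1* was close to 0, other genes of arginine use were well measured. *Ass1*, which rebuilds arginine from citrulline, was at 111 ± 2.83 CPM in the Ctrl Inputs and 27.8 ± 3.07 CPM in the Ctrl IPs (log2 fold change -1.92, adjusted p = 1.53e-13, edgeR). *Arg2*, the mitochondrial arginase (-1.66), and the cationic amino acid transporter *Slc7a2* (-1.33) were also below Input, and in all 2 of the 8 genes of this list with enough counts were above Input and 4 below (34.1% and 34.6% of all genes). In IR, 2 of 10 were higher and 5 lower (32.1% and 30.4% of all genes), led by *Arg2* (-2.18), *Ass1* (-1.54) and *Odc1*, the ornithine decarboxylase (-0.76). With IR, the Input of the transporter *Slc7a1* fell from 63.8 ± 2.39 to 32.9 ± 1.61 CPM (log2 fold change -1.03, adjusted p = 1.50e-14, edgeR). *Slc7a2* fell by 0.46, while *Arg2* rose by 0.34 on the log2 scale. In all, 4 of 8 rose and 3 fell (21.0% and 23.9% of all genes). In the IP, *Ass1* was higher (0.63) and *Slc7a1* lower (-0.53), with 2 of 9 higher and 1 lower (6.12% and 9.85% of all genes). The other gene called higher in the IP, and 1 of the 2 above Input in IR, was the neuronal synthase *Nos1*, which had 0 to 7 counts in the Inputs, 5, 38 and 11 in the Ctrl IPs and 133, 120 and 70 in the IR IPs. In IR it passed the filter only through the libraries in which it was high. The change of binding intensity was upwards at 3 of 10, with *Slc7a1* (0.42) and *Ass1* (0.40), and downwards at 2, with *Asl* (-0.65). Over all genes these shares were 6.28% and 13.9%. With library size only the change was upwards at 4 and downwards at 0. Without replicate 1 or 3 it was upwards at 2 and 1 of 9 and downwards at 0.

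*Ptgs2* was also the exception among genes of prostaglandin E2 synthesis. Its constitutive counterpart *Ptgs1* was at 102 ± 1.61 CPM in Ctrl Inputs and 101 ± 3.48 CPM in IR Inputs, and at 73.5 ± 0.497 CPM in the Ctrl IPs and 54.9 ± 3.05 CPM in the IR IPs. Of the 9 genes of this list tested, it was the only gene called for the change of binding intensity (-0.41, adjusted p = 0.00149, edgeR). The same held for the IP (-0.41, adjusted p = 0.00433, edgeR). Over all genes 13.9% and 9.85% were lower. Both calls were lost with library size only and without replicate 2. In these settings 1 gene of the list was instead called higher for binding intensity. In Ctrl, 4 of 9 were higher in IP, with the receptors *Ptger1* (2.31) and *Ptger4* (1.05), and 4 lower, with *Ptges3* (-2.25), against 34.1% and 34.6% of all genes. In IR, 3 were higher, with *Ptger1* (2.20), and 3 lower, with *Ptges3* (-2.07) and *Ptges2* (-1.17), near the shares over all genes of 32.1% and 30.4%. The Input of 3 of 9 fell with IR, *Ptger3* (-0.70), *Ptges3* (-0.50) and *Pla2g4a*, the phospholipase that releases arachidonic acid (-0.38). That of 0 rose at an adjusted p-value under 0.05 or at an unadjusted one (edgeR), with the same counts by DESeq2. Over all genes 23.9% fell and 21.0% rose.

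In the adenosine pathway, *Entpd1* shared its position above Input with the adenosine receptors *Adora2a*, *Adora2b* and *Adora3*. *Adora3* was at 10.1 ± 0.448 CPM in the Ctrl Inputs and 39.0 ± 2.87 CPM in the Ctrl IPs (log2 fold change 2.03, adjusted p = 4.95e-12, edgeR), *Adora2a* was higher by 1.40 and *Adora2b* by 1.25 on the log2 scale. In Ctrl, 3 of the 7 genes tested lay above Input and 1 below, *Cd38*, an ectoenzyme that uses NAD (-1.45), against 34.1% and 34.6% of all genes. In IR, 4 of 8 were higher (32.1% of all genes), *Adora3* (1.46), *Adora2a* (1.27), *Adora2b* (0.95) and *Adora1*, and *Cd38* was lower (-1.40). *Adora1* had 0 or 1 count in each Input, 10, 13 and 1 in the Ctrl IPs and 95, 199 and 36 in the IR IPs, so in IR it passed the filter only through the libraries in which it was high. *Cd38* was the gene of this list that rose in the Input, from 5.08 ± 0.208 to 9.60 ± 0.990 CPM (log2 fold change 0.84, adjusted p = 3.67e-06, edgeR). Binding intensity of *Adora3* was lower in IR (-0.55, adjusted p = 0.0234, edgeR), the call of 1 of 8 genes against 13.9% of all genes. This call was lost with library size only, with at least 10 counts in every library, and without replicate 2 or 3. *Adora1* was the 1 of 8 called higher in the IP (6.12% of all genes), with the limit on its filter given above.

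The genes whose log2 CPM followed that of *Cd274* most closely over the 12 libraries, among 10576 protein-coding genes that averaged 100 or more counts, were *Dcxr* (Pearson r = 0.98), *Pnrc1* (0.97) and *Pomt2* (0.97). The libraries fall into 4 groups that differ in fraction and condition, so these values describe likeness of pattern only. For *Arg1* the highest were *Tmem140* (0.80), *Hdac6* (0.79) and *Mtg2* (0.78), which is no finding at counts of 0 to 35.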

How the data were processed

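The 12 deposited files hold whole-number counts per gene, made by the authors with Trimmomatic 0.39, HISAT, HTSeq, the mm10 build and GENCODE M19, without normalization, together with 5 summary lines that were left out of tests. The strand setting of HTSeq and whether duplicates were removed are not given in the sources used here. Symbols and lengths came from GENCODE M21, to which 99.9% of identifiers matched. Members and lists were chosen with earlier results of these data known, as was the rule for named genes: the 10 members, and per list and comparison up to 3 called genes with the largest change, 100 or more counts on average and groups that did not overlap.

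Genes reaching 10 counts in 3 or more libraries entered edgeR 4.0.16 (R 4.3.3) with TMM scaling and its quasi-likelihood test, with Benjamini-Hochberg adjustment over all genes tested and a threshold of 0.05. Standard errors are the absolute log2 fold change over the square root of F. CPM and per-pool log2(IP/Input) use 1 TMM scale over 12 libraries, with a prior count of 2 on the log scale. The fits use a TMM scale per comparison, so fitted fold changes can differ from CPM ratios, for small changes also in sign. TMM takes most genes as unchanged, so a shift shared by most of them is scaled away. DESeq2 1.42.0, which the authors used, and the other settings of the closing section were alternatives. Same-numbered IP and Input were taken to come from the same lysate, although the sample titles give only replicate numbers. Their deviations correlated at only -0.023 to 0.040, so the per-pool values of log2(IP/Input) rest on this assumption. Replicates differed by more than counting noise, with a variance-to-mean ratio of 3.59 to 21.5. Counts were simulated from edgeR's own dispersion estimates with 200 changed genes, which may favor edgeR. The changed genes averaged 100 or more counts and were moved by 1 or 2 on the log2 scale. All other genes were left unchanged, so recovery of smaller changes, such as most reported for the 10 genes, was not measured. Of these changed genes, edgeR found 99% comparing the Ctrl IP with its Input (16899 genes), 88.5% in IR (18035 genes) and 83.5% for the interaction (19869 genes). False calls were 4.81%, 5.35% and 5.11% of edgeR's calls there, and 7.48%, 19.2% and 16.8% of DESeq2's.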

Additional observations from a re-analysis of the deposited data

Results flagged for a closer look

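Binding intensity, log2(IP/Input), differed between IR and Ctrl by the interaction test of edgeR for 3 of the 10 genes, against 20.2% of all genes tested. The change was -0.50 for *Cd86* (adjusted p = 1.80e-04), and the pools of both conditions did not overlap. With library size only it was not called (adjusted p = 0.119, edgeR). It was 0.30 for *Tgfb1* (adjusted p = 0.00845), again without overlap, and was not called without replicate 2 (adjusted p = 0.127, edgeR). It was -0.19 for *Vsir* (adjusted p = 0.0244), also without overlap. The *Vsir* call was lost with 7 of 10 alternatives, and the change turned to 0.13 with library size only. The share of reads on no gene was 49.4% to 54.1% in the IR IPs and 41.8% to 42.7% in the Ctrl IPs, and its part in these changes was not tested.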

How the results depend on the processing

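Each result on the 10 genes was recomputed with up to 11 alternatives: DESeq2's size factors (RLE), library size only, DESeq2, no filter on low counts, at least 10 counts in every library, protein-coding nuclear genes only, the replicate block, each replicate left out, and all 12 libraries in one fit. Of 497 values for single genes, 416 kept direction and side of the threshold, 31 lost the call, 14 gained it and 36 turned. Of the results that turned, the change of binding intensity of *Vsir* was the only one past the threshold as reported, and that of *Cd274* the only one past it after turning (0.31 with library size only, adjusted p = 0.0244, edgeR). The 63 results on named genes of the lists kept their direction in all 682 values, and 45 lost the call. Where a call was lost or turned, the cause was not tested. Depth limits *Arg1*, *Nos2* and *Ptgs2*.

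For IP against Input in Ctrl, 1 member was lower with protein-coding genes only and 1 to 2 with a replicate left out; with library size only *Pdcd1lg2* was at -0.021, and with a replicate left out *Ptgs2* ranged from -1.43 to 0.053. In IR, 5 members were higher with library size only. The lower members in IR numbered 0 with RLE, library size only, DESeq2, at least 10 counts in every library and protein-coding genes only, 2 with no filter, with the replicate block and with all 12 libraries, and 0 to 0 with a replicate left out. The genes higher in the IR IP numbered 3979 to 4153 with a replicate left out. *Cd86* in IR was at -0.047 with no filter, and with a replicate left out *Arg1* ranged from -2.03 to 0.25 and *Ptgs2* from -0.20 to 0.082. The replicate block, which pairs IP and Input of the same number, called *Tgfb1* lower in IR (-0.16, adjusted p = 0.0361, edgeR) and changed no other call on the 10 genes within a condition.

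For the change of binding intensity with IR, library size only gave 2 members higher and 0 lower, 2862 genes higher and 877 lower. With RLE, DESeq2, at least 10 counts in every library and protein-coding genes only, 1 member was lower. *Cd274* was at 0.058 with RLE and DESeq2 (0.057), 0.31 with library size only, 0.11 with at least 10 counts in every library and 0.077 with protein-coding genes only. With library size only *Pdcd1lg2* was at 0.014, *Vsir* at 0.13, *Havcr2* at 0.026 and *Entpd1* at 0.24, and *Entpd1* was at 0.040 with at least 10 counts in every library and 0.0072 with protein-coding genes only. With a replicate left out, 0 to 1 members were higher and 1 lower, with 838 to 1012 genes higher and 1786 to 2046 lower; *Cd274* ranged from -0.036 to 0.064, *Arg1* from -2.56 to 0.98 and *Ptgs2* from -0.25 to 1.49.

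For the Input, all 12 libraries in one fit gave 1500 genes lower, *Vsir* at 0.039, *Havcr2* at 0.058 and *Entpd1* at 0.011, and *Havcr2* ranged from -0.086 to 0.10 with a replicate left out. For the IP, 4 members were higher with library size only (2665 genes higher, 828 lower), and 1 with no filter, at least 10 counts in every library or the replicate block; 1 was lower with DESeq2, the block and all 12 libraries (2125 genes higher, 2952 lower). *Pdcd1lg2* in the IP was at 0.195 with library size only, 0.040 with at least 10 counts in every library, 0.014 with protein-coding genes only and 3.79e-05 with the replicate block. With library size only *Vsir* was at 0.068 and *Entpd1* at 0.16, *Entpd1* was at 0.0015 with at least 10 counts in every library, and *Cd86* at -0.00070 with no filter. With a replicate left out, *Pdcd1lg2* ranged from -0.10 to 0.15, *Cd86* from -0.045 to 0.12 and *Entpd1* from -0.085 to 0.040, and 1 member and 564 to 748 genes were higher and 1097 to 1348 genes lower. The replicate number pairs no Ctrl pool with an IR pool; used as a block, it gave *Vsir* -0.14 (adjusted p = 0.0153, edgeR) and *Nos2* 3.46 (adjusted p = 0.0769, edgeR) in the IP.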

Other observations

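Some inhibitory receptors best known from T cells were measured, while the T cell marker *Cd3e* had 0 to 12 counts per library and *Cd3d* 1 to 54. *Pdcd1*, which encodes PD-1, had 89 to 273 counts per library, and *Btla*, an inhibitory receptor for HVEM, had 440 to 702, whereas *Ctla4* had 0 to 9 and *Tigit* 0 to 7. *Lag3* had 16 to 54 counts. *Cd3d* was at 23 to 54 counts in the IR IPs and 1 to 13 in the Ctrl IPs. *Il4i1*, a secreted enzyme that breaks down aromatic amino acids, averaged 179 CPM in the Inputs, against 0.719 CPM for *Ido1*, which breaks down tryptophan. *Vsig4*, a checkpoint ligand of tissue macrophages, had 0 counts in all 12 libraries.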
